A study of Saccharomyces cerevisiae with 4 samples.

Results

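Haploid budding yeast of mating type a express a small set of genes that let them find, bind and fuse with cells of the opposite type. The set described here holds 9 such genes of the 6207 genes in the deposited table, chosen by systematic name: MFA1 (YDR461W), MFA2 (YNL145W), AGA1 (YNR044W), AGA2 (YGL032C), STE2 (YFL026W), STE6 (YKL209C), BAR1 (YIL015W), FUS3 (YBL016W) and FUS1 (YCL027W). The list was drawn up with the log2 ratios of the same 4 arrays in view. The values of the 9 genes are therefore a description, and no test of them is given. The genes are identified by name only, without coordinates, because no source used here gives the genome build of the array design.

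The cells were a mid2 mutant of Saccharomyces cerevisiae in the BY4741 background, grown in rich medium (YEPD) at 24 °C. Part of each culture received 15 ng/ml of caspofungin and was collected 2 h later, and the other part went on growing without the drug. Caspofungin is an echinocandin that inhibits synthesis of the beta-1,3-glucan of the cell wall, and MID2 encodes a cell surface sensor of wall damage. Both compared groups carry the mid2 mutation and the auxotrophic deletions of BY4741, and a MID2+ strain was not analysed here. RNA of 2 cultures was hybridised to 4 2-colour arrays with swapped dyes: the caspofungin RNA was labelled with Cy3 for arrays 1 and 3 and with Cy5 for arrays 2 and 4. Each value is 1 log2 ratio per gene and array, and the culture behind each array is not labelled, so an SD over 4 arrays mixes culture and dye differences.

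Cells of type a secrete a-factor, short lipid-modified peptides encoded by MFA1 and MFA2, through the exporter Ste6. They sense the alpha-factor of the other type with the receptor Ste2, degrade it with the protease Bar1, and carry the agglutinin Aga2 on their surface, tied to the wall protein Aga1. Bound receptor releases the G protein, which starts a kinase cascade ending in Fus3 and the transcription factor Ste12. Ste12 in turn raises mating genes, among them FUS1, whose product acts in cell fusion. The a-specific genes depend on the activator Mcm1 and are repressed by alpha2 in alpha cells and in diploids.

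Which way the ratios run is open, since no label states it. A positive ratio is taken here as likely higher with caspofungin because the series and the arrays are titled by the treated condition. It is also unknown whether the authors had already turned the swapped arrays. HIS3 and LEU2, disrupted in BY4741, bear on this: HIS3 read -0.63, 0.40, -0.64 and 0.39 in the order of the arrays. LEU2 read -0.58, 0.24, -0.64 and 0.25. Signs that alternate with the dyes in genes that should not differ are what dye bias gives in ratios that were already turned. The control row 3XSSC kept 1 sign, with 0.26, 0.10, 1.00 and 0.44 on arrays 1 to 4, and the control row Arabidopsis fitted neither pattern, with -0.62, 0.10, 0.13 and 0.73. HSP12, a small stress protein gene and the 1 gene past limma's test across all genes, was positive in both orientations, with 4.73, 3.14, 3.63 and 4.08. These rows do not settle the reading. Ratios are therefore given as deposited, and the means are also given after turning them by the dye labels, that is with the sign changed on arrays 1 and 3.

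Of the 6207 genes, 2925 (47.1%) had a value on all 4 arrays. Across genes, which are not independent, Pearson's r was 0.66 and 0.79 between arrays of 1 dye orientation and ran from -0.15 to 0.14 between opposite ones. The medians of arrays 1 to 4 over the genes with 4 values were -0.10, -0.06, -0.22 and -0.07, with array 3 the lowest. Array 3 also had the largest median absolute deviation, 0.32. The median of all gene means was -0.13. Centring each array on its median moved that median by 0.11, to -0.02, so centred means are given beside the deposited ones. MID2 was blank on all 4 arrays, which does not test the genotype.

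The labels give the strain and not the mating type, and BY4741 is a strain of type a. Among 7 a-cell markers (the 6 a-specific genes above and ASG7, an a-specific regulator of pheromone signalling), 6 had values on all 4 arrays and 1, STE6, had none. Among 7 alpha-cell markers, 1 had values on all 4 arrays, 4 had values on 1 to 3 arrays, and 2, the alpha-factor gene MF(ALPHA)1 and the a-factor receptor gene STE3, were blank throughout. The exception was the row MATALPHA2, with 0.14, -0.20, -0.35 and -0.09 on arrays 1 to 4. Cells of type a also hold alpha2 sequence at a silent locus, and the source of that row's signal was not tested. A ratio gives no level, so these counts say only where the authors kept a value.

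The ratios of the a-cell and mating genes were below 0 in nearly every measurement. Of their 30 values, 28 were negative, and the 2 positive ones belonged to BAR1. Most genes of the table were also below 0 as deposited, 59.8%, 57.2%, 68.6% and 58.5% of those compared on arrays 1 to 4. MFA1, MFA2, AGA2, STE2 and FUS1 were negative on all 4 arrays, which is 5 of the 6 members with 4 values. Over all genes compared, 19.3% were negative on all 4 arrays. With each array centred, the same 5 were still negative throughout, a share of 8.72% over all genes. Nothing is read from these shares, since the members were chosen on these arrays. In RNA of whole cultures, a different share of cells with a transcript and a different amount of it per cell cannot be told apart.

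**Figure D1:**
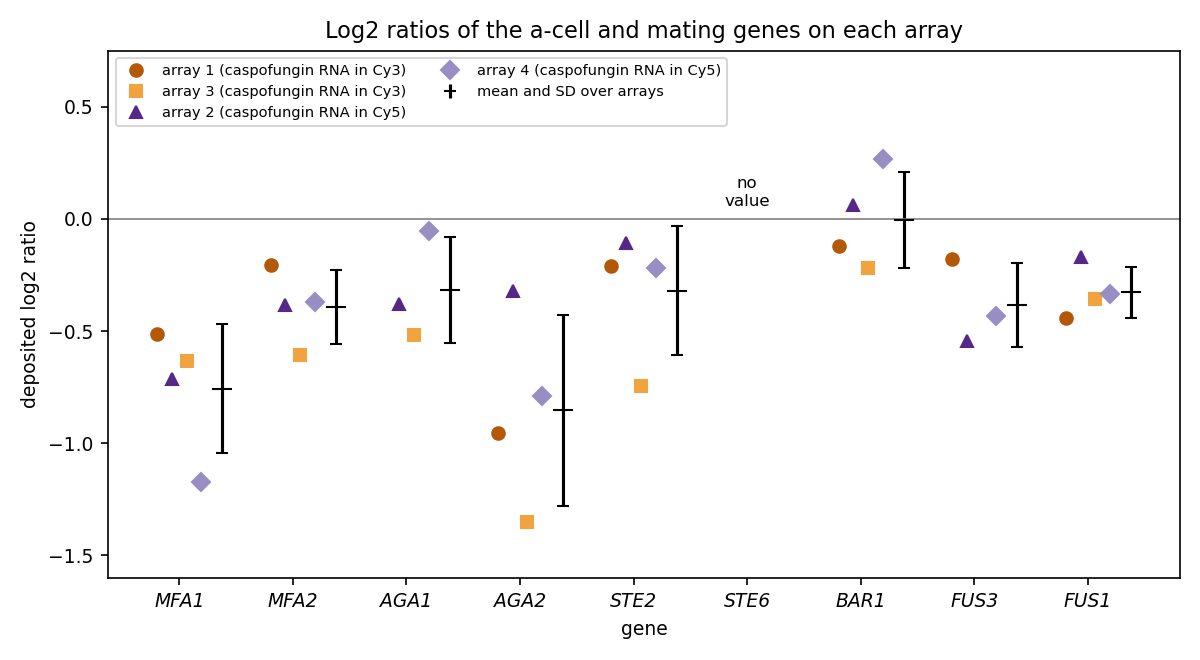
Deposited log2 ratio (vertical axis) of each of the 9 genes on arrays 1 to 4, coloured by dye orientation, with the mean and SD over the arrays that have a value. All plotted values lie below 0 except those of BAR1 on arrays 2 and 4, AGA2 reaches -1.35 on array 3, MFA1 reaches -1.17 on array 4, and STE6 has no value.

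Both a-factor genes were negative throughout and differed in size. MFA1 (YDR461W) had log2 ratios of -0.51, -0.71, -0.63 and -1.17 on arrays 1 to 4. All 4 arrays were below 0, and array 4 was the lowest. Its mean was -0.76 ± 0.29 (SD, n = 4 arrays), a ratio of 0.591, and -0.64 ± 0.32 after centring. No other of the 2925 genes stayed so far below 0 on its least negative array, and its mean was the 14th lowest. On single arrays its place varied: 17.0%, 3.97%, 19.1% and 0.410% of genes lay lower on arrays 1 to 4.

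MFA2 (YNL145W), the other a-factor gene, had -0.21, -0.39, -0.61 and -0.37. The 4 arrays were again all below 0, with array 3 the lowest, as it was by median over all genes. The mean was -0.39 ± 0.16, or -0.28 ± 0.12 after centring, with 7.86% of genes lower. MFA1 was below MFA2 on 4 of 4 arrays, by a mean of 0.37 ± 0.32 (log2, SD, n = 4), which is more than the larger SD of the pair. On array 3 the pair was nearly level. The exporter gene STE6 (YKL209C), which would complete the a-factor branch, was blank on all 4 arrays.

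Among the agglutinins, AGA2 (YGL032C), which encodes the subunit that binds the partner cell, had the largest negative mean of the set. Its log2 ratios were -0.95, -0.32, -1.35 and -0.79 on arrays 1 to 4. Every array was below 0, with arrays 3 and 1 the lowest and array 2 far above them. The mean was -0.85 ± 0.43 (SD, n = 4), a ratio of 0.554, and -0.74 ± 0.36 after centring. It was the 4th lowest mean of the 2925 genes. Without array 3 the mean was -0.69, and without array 2 it was -1.03.

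AGA1 (YNR044W) encodes the anchor subunit, a GPI-linked wall protein that alpha cells also make. It had no value on array 1 and read -0.38, -0.52 and -0.06 on arrays 2, 3 and 4. Its mean was -0.32 ± 0.24 (SD, n = 3 arrays). After centring, array 4 was at 0.02, so AGA1 did not keep 1 sign. Aga1 and Aga2 form 1 complex at the surface, and on the 3 arrays where both were measured AGA2 was lower than AGA1 on arrays 3 and 4 and higher on array 2.

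STE2 (YFL026W), the alpha-factor receptor gene, had -0.21, -0.11, -0.75 and -0.22. The 4 values were all negative, and array 3 stood below the other arrays, which lay close together. Array 3 also had the lowest median over all genes, and the centred values of STE2 were -0.11, -0.05, -0.52 and -0.15. Its mean was -0.32 ± 0.29 (SD, n = 4), and -0.21 ± 0.21 after centring. Without array 3 it was -0.18, so that array gave much of the mean.

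BAR1 (YIL015W) encodes the secreted protease that cuts alpha-factor, and it was the a-specific gene with no shared sign. It read -0.12, 0.06, -0.22 and 0.27 on arrays 1 to 4. The sign followed the dyes, negative where the caspofungin RNA carried Cy3 and positive where it carried Cy5, a sign pattern shared by 19.7% of genes. The mean was -0.00 ± 0.21 (SD, n = 4), with 72.3% of genes lower, and 0.11 ± 0.16 after centring.

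FUS3 (YBL016W), the MAP kinase gene of the pheromone cascade, had no value on array 3 and read -0.18, -0.54 and -0.43 on arrays 1, 2 and 4. Its mean was -0.38 ± 0.19 (SD, n = 3), and the 3 values were below 0 before and after centring. FUS1 (YCL027W), the membrane protein gene used in fusion and a classic Ste12 target, had -0.44, -0.17, -0.36 and -0.33 on arrays 1 to 4. These were the closest 4 values of any member. The mean was -0.33 ± 0.11 (SD, n = 4), and -0.21 ± 0.11 after centring, with 13.4% of all gene means lower.

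**Figure D2:**
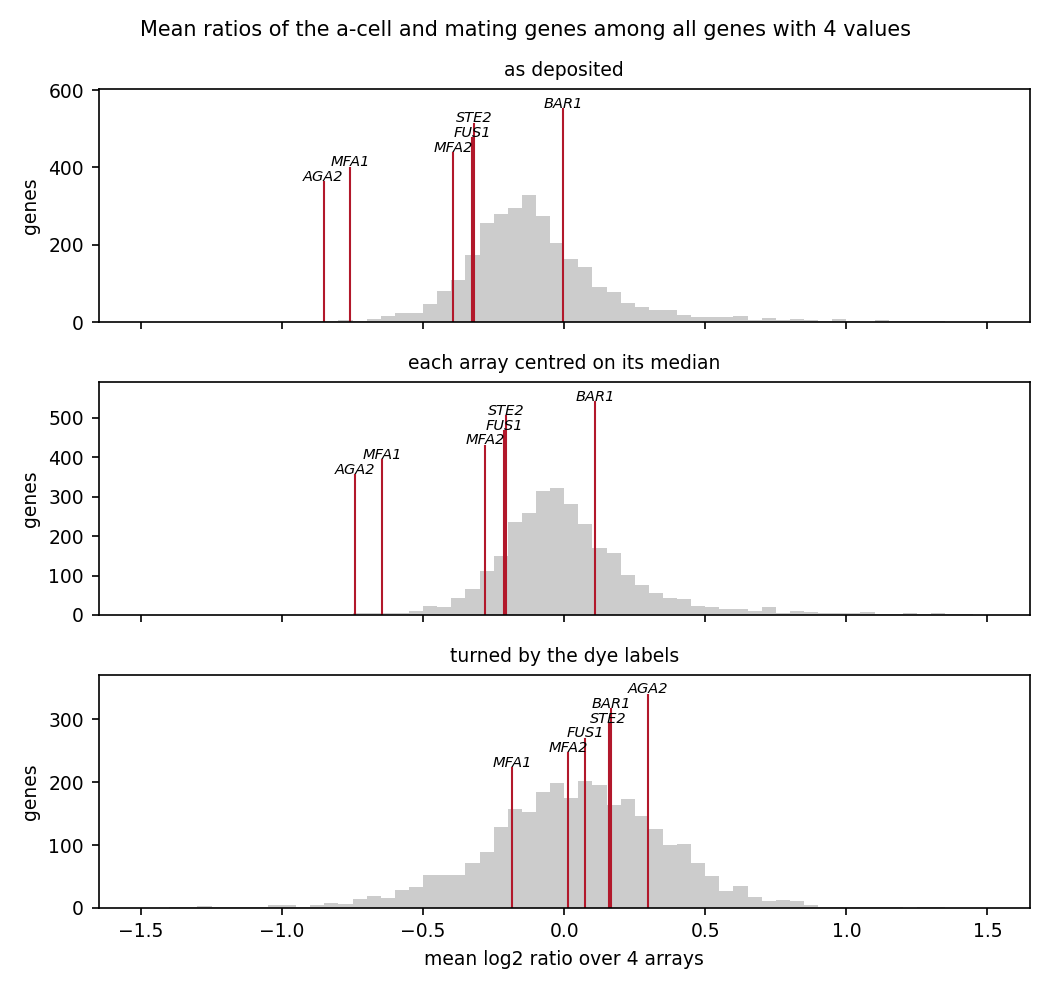
Number of genes (vertical axis) by mean log2 ratio over 4 arrays (horizontal axis, bins of 0.05 within -1.5 to 1.5) for the 2925 genes with 4 values, with red lines at the 6 members, as deposited, with each array centred, and turned by the dye labels. AGA2 and MFA1 lie in the lower tail of the upper panels, at -0.85 and -0.76 as deposited, and inside the bulk of the lowest panel, at 0.30 and -0.18.

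Ordered by mean log2 ratio, the 6 genes ran AGA2, MFA1, MFA2, FUS1, STE2 and BAR1. AGA2 and MFA1 did not differ beyond their spread: they were 0.10 ± 0.57 apart and MFA1 was the higher on 2 of 4 arrays. MFA2 and FUS1 were 0.07 ± 0.22 apart, and FUS1 and STE2 0.01 ± 0.27 apart, both within the larger SD of the pair. STE2 lay below BAR1 on 4 of 4 arrays, by 0.32 ± 0.22, just beyond the larger SD of 0.29. AGA2 lay below MFA2 on 3 of 4 arrays, by 0.46 ± 0.38, just beyond the larger SD of 0.43. By mean, AGA2 and MFA1 were at the low end, MFA2, FUS1 and STE2 in the middle, and BAR1 near 0. This grouping was not tested.

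Means of the 2 dye orientations differed in either direction among the members, a difference that was not tested. For AGA2 the mean of arrays 1 and 3 was -1.15 and that of arrays 2 and 4 was -0.56, a difference of -0.60. For MFA1 it ran the other way, -0.57 on arrays 1 and 3 and -0.94 on arrays 2 and 4, a difference of 0.37, less than the gap between its values on arrays 2 and 4. MFA2 was level, with -0.41 and -0.38. The median absolute difference between orientations over all genes was 0.41, and 67.1% of genes had a smaller one than AGA2, 45.4% a smaller one than MFA1 and 4.00% a smaller one than MFA2. BAR1, with -0.17 and 0.16, was the member whose signs followed the dyes, as did those of 33.1% of all genes, counting both ways.

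**Figure D3:**
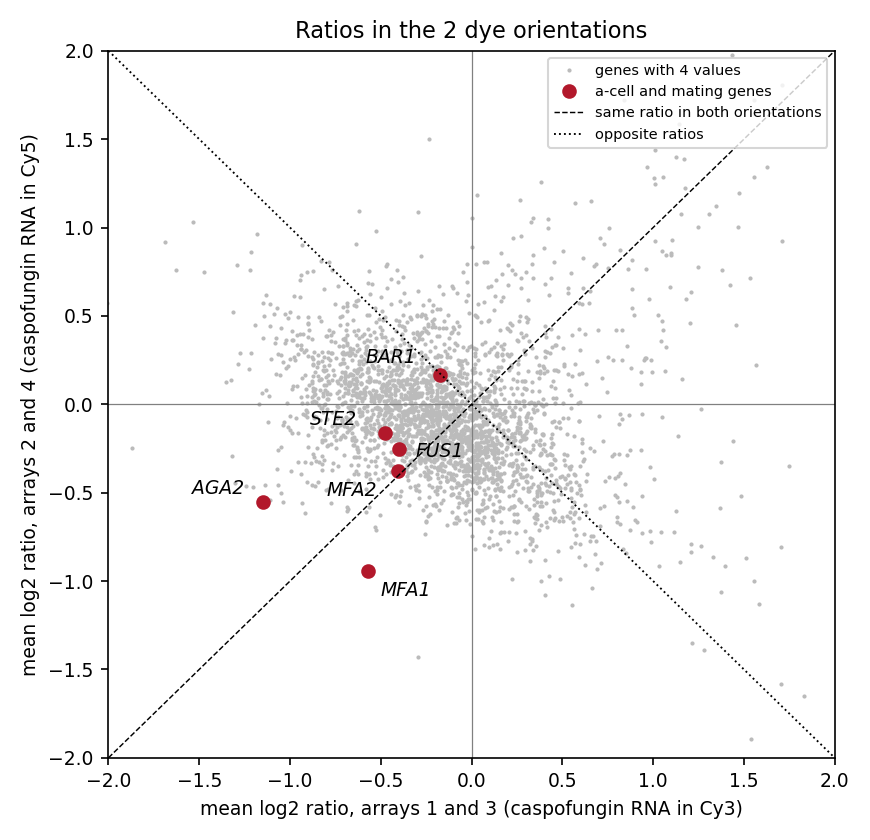
Mean log2 ratio on arrays 1 and 3 (horizontal axis, caspofungin RNA in Cy3) against the mean on arrays 2 and 4 (vertical axis, caspofungin RNA in Cy5) for the genes with 4 values, with 6 members in red and 20 genes outside the range shown. AGA2, MFA1, MFA2, FUS1 and STE2 lie at the lower left of the crossing lines, and BAR1 lies on the line of opposite ratios.

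The members looked different if the deposited ratios still follow the dyes. Turned by the dye labels, the means were 0.30 for AGA2, -0.18 for MFA1, 0.01 for MFA2, 0.16 for STE2, 0.07 for FUS1 and 0.17 for BAR1. The median of these 6 means was then 0.12, beside 0.05 over all genes, against -0.36 and -0.13 as deposited. In that reading none of the 5 negative genes keeps 1 sign, and BAR1 is the member with 4 values of the same sign. Both outcomes are fixed by the sign change itself, which gives a gene of 1 sign both signs. The signs of BAR1 followed the dyes as deposited, so turning makes them alike. Neither outcome bears on which reading holds.

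The rest of the mating machinery was compared with the same test across all genes. It comprised 61 genes outside the 9, in 5 lists that overlap: 60 were in the table and 26 had values on all 4 arrays. None of the 26 passed limma's test at an adjusted p under 0.05, which called 0.0342% of all genes, 1 with a positive mean and 0 with a negative one. At an unadjusted p under 0.05 there were 8 of the 26, 2 with positive and 6 with negative means, beside 25.3% of all genes, 18.5% with negative means. Of the 26, 6 (23.1%) were negative on every array, a share of 19.3% over the whole table, and 1 was positive on all 4 arrays, beside 6.87%. Signs followed the dyes in 8 of the 26, beside 33.1% of all genes. After centring 1 of the 26 stayed negative on all 4 arrays, beside 8.72%. The median of the 26 means was -0.12, close to the -0.13 of all genes.

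Genes that mature a-factor had 4 values for 4 of 7 members, none past the test. STE14, the methyltransferase gene that caps the peptide, averaged -0.32 ± 0.63, and STE24, a protease gene, -0.11 ± 0.61 (SD, n = 4). Both followed the dyes, negative on arrays 1 and 3 and positive on arrays 2 and 4. RAM1, a farnesyltransferase subunit gene, averaged -0.29 ± 0.30 and was positive on array 2 only. AXL1, the gene of the protease that makes the final cut, read -0.09, -0.07, -0.21 and -0.06, with a mean of -0.11 ± 0.07, close to the median of all genes. AXL1 was thus the 1 maturation gene measured that kept a negative sign on every array, as MFA1 and MFA2 did, and after centring it did not.

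Of 19 pheromone signalling genes, 11 had 4 values and none passed. DIG2, an inhibitor of Ste12, had the lowest mean, -0.40 ± 0.34, and was negative on all 4 arrays although array 4 was at -0.00. GPA1, the G protein alpha subunit gene, averaged -0.36 ± 0.52 and followed the dyes, with 0.06, -0.79, 0.13 and -0.82 in the order of the arrays. CDC42, the polarity GTPase gene, averaged -0.25 ± 0.25, and DIG1, the paralogue of DIG2, averaged -0.20 ± 0.27. The genes of the scaffold STE5 and the kinases STE20 and STE11 were blank on all 4 arrays, and the kinase gene STE7 had a value on 1 array.

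Of 24 genes known to be induced by pheromone, 7 had 4 values and 10 were blank on all 4 arrays. KAR4, a transcription factor gene used in nuclear fusion, read -0.16, -0.47, -0.64 and -0.64. All 4 arrays were negative, the mean was -0.48 ± 0.23 (SD, n = 4), and KAR4 was the 1 gene of the 26 that stayed negative on all arrays after centring. ASG7 averaged -0.27 ± 0.21 and was at -0.00 on array 2. PRM8, a pheromone-regulated membrane protein gene, had 0.94 on array 1 and -0.14 to 0.03 on the others.

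PRM5 stood at the other end of that list. It read 1.09, 1.46, 0.93 and 1.42 on arrays 1 to 4, all positive, with a mean of 1.22 ± 0.26 (SD, n = 4). It missed the threshold in limma (adjusted p = 0.083) and passed in 6 of 11 alternatives, over which limma's adjusted p ran from 0.0026 to 0.358. PRM5 is known to answer to the cell wall integrity kinase Slt2 as well as to pheromone. Over the 7 genes of the list with 4 values the median mean was 0.09, so they did not share 1 direction: 2 were negative and 1 positive on every array, and after centring 1 was negative and 2 were positive.

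Haploid-specific genes had 4 values for 5 of 9 members, none past the test. Outside GPA1 and AXL1, the HO endonuclease gene averaged -0.23 ± 0.13 and was negative on all 4 arrays, and RME1, a repressor of meiosis, averaged -0.12 ± 0.48 with 0.51 on array 2. None of the 5 stayed negative on all arrays after centring (0 genes). The mating-type regulators had 4 values for 2 of 8 genes, the corepressor genes TUP1 and CYC8. TUP1 read 1.35, -0.76, 1.62 and -0.28 on arrays 1 to 4, and CYC8 read 0.76, -0.67, 0.91 and -0.96. Both followed the dyes. MCM1, the activator of the a-specific genes, had a value on array 2 only, -0.47.

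**Figure D4:**
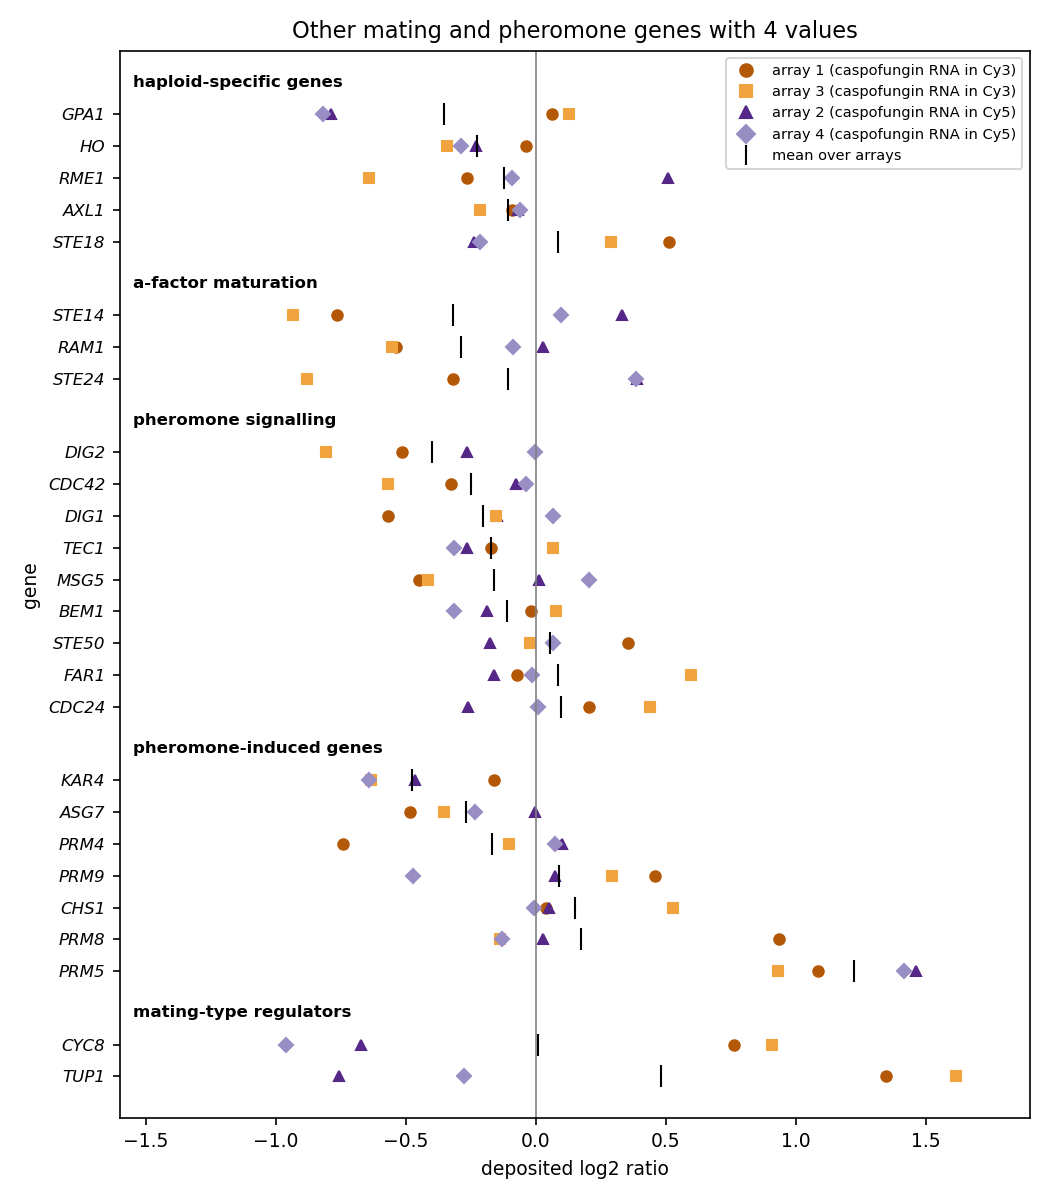
Deposited log2 ratio (horizontal axis) on each of 4 arrays, with the mean as a bar, for the 26 other mating and pheromone genes with 4 values, a gene of more than 1 list being shown in the first. PRM5 is positive on every array, from 0.93 to 1.46, KAR4 is negative on every array, from -0.64 to -0.16, and TUP1 and CYC8 split by dye orientation.

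The genes whose 4 values lay nearest those of MFA1 were found by the root mean square difference over the 4 arrays, leaving out the members. They were NOP9, a ribosome assembly factor gene (0.195 in log2), then KAR4 (0.341), the RNA polymerase III subunit gene RPC25 (0.342), ILM1 (0.348) and PIG2 (0.351). The median over all genes was 0.765. The nearest member to MFA1 was MFA2, at 0.458. MFA1 lay below every 1 of these 5 genes on array 4, where it read -1.17 and NOP9, the lowest of them, -0.87.

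For AGA2 the nearest were SMT1 (0.135), MCT1 (0.174), the membrane protein gene IZH1 (0.176), the Golgi protein gene TVP38 (0.210) and PRP19, a splicing factor gene (0.248), against a median of 0.847. All 5 had their lowest value on array 3, as AGA2 did, and 4 had their highest on array 2. The exception was TVP38, with -0.47 there and -0.46 on array 4. These genes were picked for nearness to AGA2 on the same arrays, so the shared pattern follows from the choice and nothing is read from it. The nearest member to AGA2 was MFA1, at 0.502. The closest pair of members was MFA2 and STE2 (0.173), followed by MFA2 and FUS1 (0.203).

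**Figure D5:**
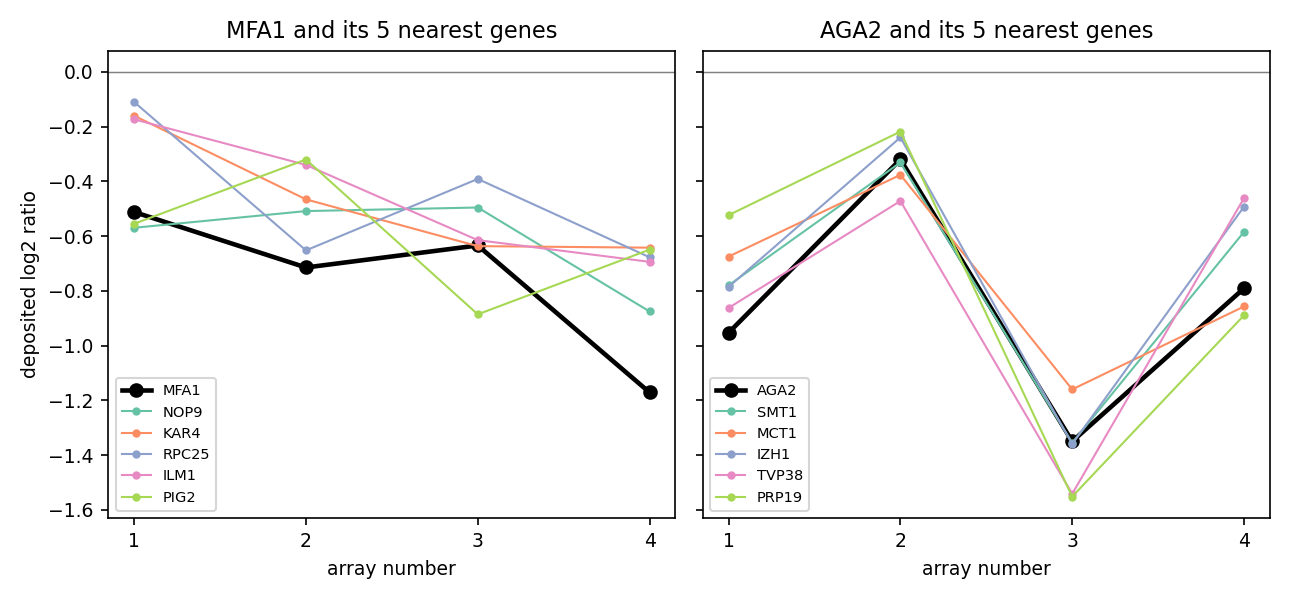
Deposited log2 ratio (vertical axis) on arrays 1 to 4 (horizontal axis; lines only join the points of a gene) for MFA1 and AGA2 with the 5 genes nearest to each. AGA2 and its 5 nearest genes have their lowest values on array 3, which follows from picking those genes by nearness. MFA1 is lowest on array 4, at -1.17.

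Genes next to the members on the chromosome were set beside them, using the gene order of the RefSeq assembly R64. Of 15 neighbours in the table, 6 had values on all 4 arrays, and none of these was negative on every array (0 genes, beside 19.3% of all genes). With so few neighbours, nothing is read from 0 of 6 beside that share. UBA1, beside STE6, was positive on every array. The 6 means ran from -0.27, for SNL1 beside BAR1, to 0.56, for UBA1, with a median of -0.06.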

How the data were processed

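The authors deposited 1 log2 ratio per gene and array for 4 2-colour arrays of 2 cultures with swapped dyes, per the labels. Base 2 was found from the numbers themselves: as powers of 2, 100% fell within 2e-06 of a figure with 4 decimals. No source used here states the scanner software, background correction, normalization, the reason for blank cells, or the scale, centring and direction of the ratios. Gene names came from RefSeq (assembly R64), which matched 5654 of 6207 systematic names.

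The test, limma 3.58.1 under R 4.3.3, set the means of the 2 cultures against 0 for the 2925 genes with 4 values. Culture identity is not in the labels, so both pairings of opposite dye orientation were fitted, and Benjamini-Hochberg adjustment over all genes used the larger p. Each p-value measures the spread between the 2 means of an assumed pairing, which need not be the true cultures. Nothing says how independent the cultures were. The fit was tested on simulated data with 200 changed genes, each changed by more than any member mean. That run does not show how well smaller changes are found. The members and lists were chosen with earlier results of these data known. The genes named are the 9 members, up to 4 per list by absolute mean, and the 5 nearest to MFA1 and to AGA2. STE3, MF(ALPHA)1, MCM1, STE5, STE20, STE11, STE7, HSP12, UBA1 and SNL1 were named after their values were seen. Alternatives were centring, scaling, turning by the dye labels, genes on at least 3 arrays, each array left out, each pairing, and 4 arrays as replicates. The number of arrays limits the precision.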

Additional observations from a re-analysis of the deposited data

Results flagged for a closer look

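The 6 members with 4 values and the genes named from the fixed lists, 23 in all, were examined for an array far from the others, and 1 had such an array. PRM8 read 0.94 on array 1, while its other values lay between -0.14 and 0.03. About 1 gene in 20 is picked by chance with such a comparison of 4 values.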

How the results depend on the processing

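The median of the 6 member means, -0.36 as deposited, was -0.25 with arrays centred, -0.25 with arrays also scaled, -0.36 with genes on at least 3 arrays (8 members) and between -0.41 and -0.32 without 1 array. It was 0.12 turned by the dye labels, where 5 of 6 member means moved by more than their SD. In the other settings all 6 moved by less. The count of all genes past the limma threshold, 1 in the deposited values, was 10 with arrays centred, 48 with arrays also scaled, 17 with 4 arrays as replicates, 148 with arrays 1 and 4 paired, 0 turned by the dye labels (944 at an unadjusted p under 0.05), 0 with genes on at least 3 arrays (680 unadjusted), and from 1 to 61 without 1 array. It was 61 without array 1 and 56 without array 3. Of the other mating genes, 0 passed as deposited, and 1, PRM5, passed with arrays centred, with arrays scaled, with arrays 1 and 4 paired, and with 4 arrays as replicates. Without 1 array the count was 0 or 1, again PRM5, without array 1 or array 3. Leaving out 1 array leaves 1 culture on 1 array, where its dye part does not cancel. With arrays 1 and 2 paired, the count of all genes was 1 (862 unadjusted), against 148 with arrays 1 and 4 paired.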
